A study of Homo sapiens with 18 samples.

Results

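The repressive histone mark H3K9me3 was compared between NB4 cells exposed to maltonis and NB4 cells left untreated. All regions of the 6 H3K9me3 lists on chromosomes 1 to 22 were taken, 3 lists per condition, which gave 191955 regions out of 501863 regions and peaks in the 18 lists of the series. NB4 is an established human cell line derived from acute promyelocytic leukemia, and a single line stands here for that leukemia. Maltonis is a synthetic molecule derived from maltol. The treated cells received it at 10 µM for 24 h, the untreated cells did not, and both were kept in the same culture medium. ChIP-seq, in which DNA bound to the marked histone is immunoselected and sequenced, was conducted on biological triplicates, and the other libraries of the series profiled H3K4me3 and H3K27ac.

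H3K9me3 is the mark of constitutive heterochromatin. It is written by methyltransferases of the SUV39H and SETDB1 families and is bound by HP1 proteins, which compact the chromatin. It is best known from the repeats around centromeres and from the clusters of KRAB zinc finger genes, many of them on chromosome 19. H3K4me3, in contrast, marks active promoters, and H3K27ac marks active promoters and enhancers.

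Each list gives the start and the end of every enriched region, the number of reads in it and a score. Reads outside the called regions are not in the lists, and no external standard was used here, so all values below describe where the reads within regions lay and not the amount of H3K9me3 per cell. As the chromatin came from bulk cultures, fewer cells carrying the mark at a place and less of it per cell cannot be told apart. The lists held 3117646, 3279588 and 3344547 reads in untreated replicates 1 to 3 and 3206148, 3119801 and 2584920 reads in maltonis replicates 1 to 3. Maltonis replicate 3 stood apart, with 81.7% of the reads and 84.0% of the covered length of the mean of the other 2 maltonis libraries. It also missed 1348 merged regions that the other 5 libraries had all called, whereas each of the others missed between 337 and 1020 such regions. The lowest score admitted to a list was 28.8 to 28.9 in the untreated libraries and in maltonis replicate 3, and 33.6 and 32.7 in maltonis replicates 1 and 2. Most values below are therefore given library by library.

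The mark moved between chromosomes. Chromosomes 9, 19, 12 and 20 held a larger share of the reads after maltonis, and chromosomes 3, 14 and 1 a smaller one. The share of chromosome 9 was 5.35%, 5.34% and 5.36% in the untreated libraries and 6.50%, 6.43% and 6.12% in the maltonis libraries. All 3 maltonis values, replicate 3 included, were above the untreated ones, and the mean was 18.8% higher (5.35% ± 0.00891 against 6.35% ± 0.203, SD, n = 3 each). Chromosome 19, the most densely covered chromosome of the lists, held 6.50%, 6.41% and 6.35% of the reads without and 7.06%, 6.98% and 7.38% with maltonis. Chromosome 12 held 9.39%, 9.24% and 9.19% without and 10.2%, 10.3% and 10.1% with maltonis. In the opposite direction, chromosome 3 held 3.27%, 3.34% and 3.38% in untreated cells and 2.69%, 2.68% and 2.74% in maltonis-treated cells. Chromosome 14 fell from 1.40%, 1.44% and 1.46% to 1.20%, 1.16% and 1.17%. The conditions did not overlap on any of these chromosomes.

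The reads of each chromosome were scaled by TMM and entered the quasi-likelihood test of edgeR. P-values were adjusted by the method of Benjamini and Hochberg, and the FDR had to be 0.05 or less. Of the 22 chromosomes, 19 passed (86.4%), 10 with more reads after scaling (45.5%) and 9 with fewer (40.9%). The largest rises were on chromosome 9 (log2 fold change 0.30, SE 0.0234, edgeR FDR 7.67e-06), chromosome 19 (0.20, SE 0.0195), chromosome 12 (0.19, SE 0.0150) and chromosome 20 (0.16, SE 0.0264). Chromosomes 10, 7, 16, 17, 11 and 4 followed, with log2 fold changes from 0.12 down to 0.04. The largest decreases were on chromosome 3 (-0.25, SE 0.0141, edgeR FDR 2.14e-06), chromosome 14 (-0.24, SE 0.0223), chromosome 1 (-0.15, SE 0.00967) and chromosome 5 (-0.11, SE 0.0115). Chromosomes 18, 22, 8, 6 and 2 also fell, by 0.10 to 0.03 on the log2 scale, while chromosomes 13, 15 and 21 did not pass the test. The split depended on the scaling, since without TMM normalization 6 chromosomes rose and 10 fell, and DESeq2 called 8 and 10. Chromosome 4 changed direction without TMM (log2 fold change -0.01). By the share of reads, 6 chromosomes were above and 11 below the untreated range in all 3 maltonis libraries, with chromosome 4 among the 11. The calls of chromosomes 2, 4, 6 and 22, all with small changes, were lost when single libraries were left out. This concerned each untreated library for chromosomes 2, 6 and 22, maltonis replicate 1 for chromosomes 2 and 22, maltonis replicate 2 for chromosome 22, and untreated replicates 2 and 3 for chromosome 4 (log2 fold changes without the library from -0.10 to 0.04).

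**Figure D1:**
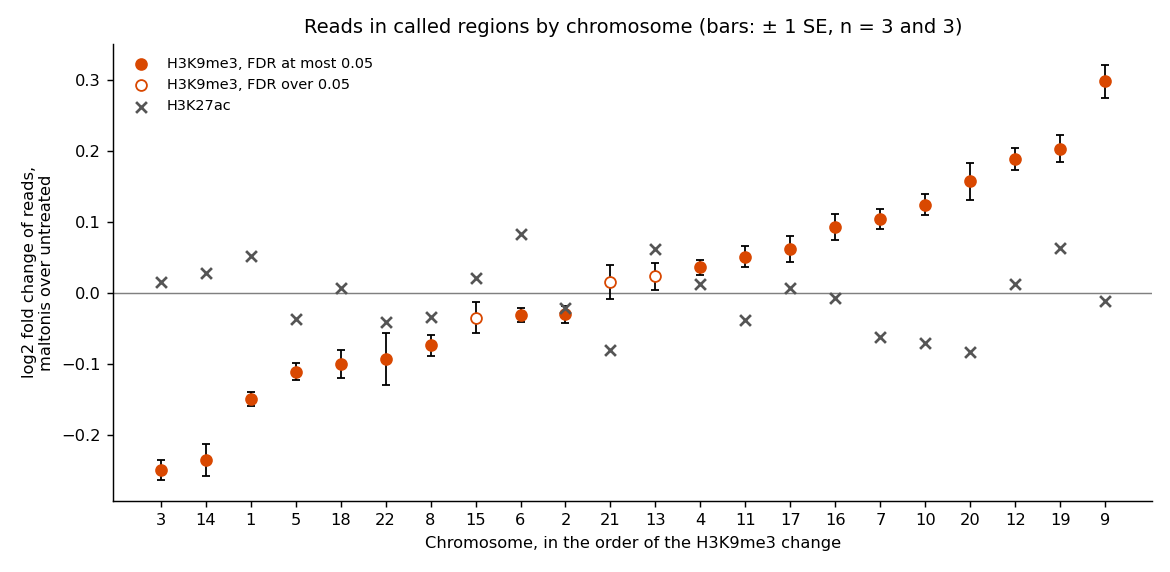
log2 fold change of the reads in called regions (y axis), maltonis over untreated, for each of the 22 chromosomes (x axis, ordered by the H3K9me3 change). Circles are H3K9me3, filled where the edgeR FDR was at most 0.05, with bars of 1 SE, and crosses are H3K27ac. H3K9me3 runs from -0.25 on chromosome 3 to 0.30 on chromosome 9, while the largest H3K27ac change is 0.08 in size.

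The shifts of H3K27ac were smaller. In the same fit on the H3K27ac lists 18 of 22 chromosomes passed the FDR, but the largest change was 0.08 in size on the log2 scale, against 0.30 for H3K9me3. Chromosome 9 stood at -0.01 and chromosome 3 at 0.02 for H3K27ac. The 2 marks had the same sign on 9 of 22 chromosomes. The difference between the marks was not tested.

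The share of the called length moved with these shifts, and on some chromosomes the density of reads did so too. The share of the covered length moved on most chromosomes as the share of reads did. It was above the untreated range in all 3 maltonis libraries on 6 chromosomes (7, 9, 10, 12, 19 and 20). On 10 chromosomes (1, 2, 3, 5, 6, 8, 14, 18, 21 and 22) it was below that range. Chromosomes 4 and 15 were lower in each maltonis library by the share of reads only, and chromosome 21 by the share of length only. In Mb, the covered length was above the untreated range on 0 chromosomes, below it on 10 and overlapped on 12. The number of regions was above that range on 0 chromosomes and below it on 20. On chromosome 9 the regions covered 9.60, 10.0 and 10.2 Mb without and 12.5, 12.1 and 9.81 Mb with maltonis, so the conditions overlapped. Chromosome 9 made up 5.94%, 5.96% and 5.995% of the covered length in untreated cells and 7.39%, 7.31% and 6.96% in maltonis-treated cells. In contrast, the density of reads on chromosome 9 was lower with maltonis, at 17.4, 17.5 and 17.6 reads per kb without and 16.6, 16.6 and 16.1 with it. With the called length as an offset in the edgeR fit, 0 of 22 chromosomes passed, 2 had an unadjusted p under 0.05, and the median log2 fold change of the chromosomes became 0.12. Around that median the changes of density ran from -0.04 to 0.13. The upper end was chromosome 18, with 21.7, 21.9 and 22.2 reads per kb in untreated and 23.02, 23.1 and 22.6 reads per kb in maltonis libraries. It was the 1 chromosome where density was higher in every maltonis library, while 17 of 22 chromosomes were lower in each of them and 4 overlapped. As the density over all regions was itself lower with maltonis, the count differed relative to the density of each library, with 6 chromosomes (1, 8, 10, 18, 19 and 21) higher, 9 lower and 7 overlapping. On chromosome 19 the share of reads was 11.3% higher with maltonis, the share of length 6.70% and the relative density 4.33%. On chromosome 9 the share of length was 21.0% higher and the relative density fell by 1.83%.

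Chromosomes that carried much H3K9me3 tended to gain, and those that carried little tended to lose. In untreated cells the regions covered 16.2% of chromosome 19, 12.3% of chromosome 12 and 11.9% of chromosome 7, counted up to the last called position, and all 3 gained reads. They covered 3.09% of chromosome 3, 2.496% of chromosome 14 and 3.29% of chromosome 1, which lost reads. Over the 22 chromosomes the log2 fold change was correlated with the covered percentage, taken as the mean of both conditions (Pearson's r = 0.68, Spearman's rho = 0.79). This is a description, since the chromosomes come from the same 6 libraries and the covered percentage is a value of the same lists. That percentage includes the maltonis lists and so moves in part with the gain itself. Chromosome 9, with 7.05% covered, lay above this order.

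On chromosome 9 the gain was on one side. The first 40 Mb, a limit set after the window values below were seen and thus not tested, held 3.81%, 3.78% and 3.82% of all reads in untreated cells and 5.19%, 5.13% and 4.77% in maltonis-treated cells. The covered length in these 40 Mb was 7.02, 7.31 and 7.46 Mb without and 10.2, 9.87 and 7.78 Mb with maltonis. Maltonis replicate 3 gained the least length here and still exceeded every untreated library. The rest of the chromosome fell from 1.54%, 1.55% and 1.54% to 1.32%, 1.30% and 1.35% of all reads. The log2 fold changes were 0.46 (SE 0.0288) for the first 40 Mb and -0.16 (SE 0.0223) for the rest. H3K27ac moved to the same sides by far less, with 0.07 and -0.06, and its part in the H3K9me3 change was not tested. H3K4me3 peaks were fewer on both sides, with 242 ± 17.3 without and 219 ± 8.39 with maltonis in the first 40 Mb (SD, n = 3 each). In the rest they numbered 527 ± 10.0 without and 470 ± 4.62 with maltonis (SD, n = 3 each). The number of peaks over all chromosomes is not given here, so a change of the complete lists cannot be told apart.

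The same reads were also counted at finer scale in fixed windows of 1 Mb, whose limits do not move with the calls. A region was counted in the window that held its middle. A window was called where the edgeR FDR did not exceed 0.01 and the log2 fold change was 0.58 or more in size. Of 2584 windows tested, 42 were higher (1.63%) and 12 lower (0.464%) with maltonis, 54 in all (2.09%). Higher windows were found on 9 chromosomes, and 13 of the 42 were on chromosome 9 and 11 on chromosome 12. Of the 35 windows tested in the first 40 Mb of chromosome 9, 33 had a log2 fold change above 0, with a median of 0.56, and 13 were called higher. In the rest of the chromosome 24 of 68 windows were above 0, the median was -0.13, and 3 windows were called lower. As the limit of 40 Mb was chosen from these windows, their counts on its 2 sides only describe the choice. The counts depended on the tool and the scaling. DESeq2 called 63 higher and 68 lower windows, and edgeR without TMM called 20 and 14, with the median of all windows at -0.13 in place of -0.03. Each library mattered, since 17 to 38 higher and 0 to 6 lower windows passed when 1 of the 6 libraries was left out. The fewest higher windows, 17, were left without untreated replicate 3. With windows of 100 kb, 0 of 14234 passed in edgeR, although 1863 had an unadjusted p under 0.05.

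The 5 windows with the largest rise were on chromosomes 20, 9 and 10. The first, chr20:30000001-31000000, held 217, 212 and 352 reads in untreated and 580, 722 and 348 reads in maltonis libraries (log2 fold change 1.29, SE 0.251, edgeR FDR 0.00967). Maltonis replicate 3 did not exceed untreated replicate 3 there, and the conditions overlapped. The second, chr9:13000001-14000000, held 1096, 1084 and 1427 reads without and 2973, 2817 and 1364 reads with maltonis (1.19, SE 0.191, edgeR FDR 0.00397), again with maltonis replicate 3 inside the untreated range. At chr10:102000001-103000000 the conditions were apart, with 772, 677 and 597 reads without and 1381, 1396 and 997 reads with maltonis (1.10, SE 0.134, edgeR FDR 0.000912). They were also apart at chr10:130000001-131000000 (log2 fold change 1.07, SE 0.194) and at chr9:9000001-10000000 (1.05, SE 0.141). In each of these windows the gain was one of length. In the window on chromosome 9 from 13000001, regions covered 77.0, 78.4 and 99.8 kb without and 216, 206 and 109 kb with maltonis, while the density was 14.2, 13.8 and 14.3 reads per kb without and 13.8, 13.7 and 12.5 with it.

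Among the lower windows, 3 held a few regions in every untreated library and no region in any maltonis library. These were chr9:119000001-120000000 (139, 150 and 102 reads without maltonis), chr10:15000001-16000000 (78, 162 and 122 reads) and chr19:41000001-42000000 (97, 141 and 108 reads). As a region below the limits of the caller is not listed, an empty window gives no fold change. The next was chr1:192000001-193000000, with 957, 1397 and 1249 reads without and 571, 651 and 434 reads with maltonis (log2 fold change -0.89, SE 0.144, edgeR FDR 0.00411). It was followed by chr9:116000001-117000000, with 741, 883 and 1145 reads without and 504, 448 and 397 reads with maltonis (-0.80, SE 0.153, edgeR FDR 0.00910). The conditions did not overlap in either window.

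All 42 higher windows had a longer covered length in every maltonis library than in any untreated one, and the 9 lower windows that still held a maltonis region had a shorter one. Over all windows with a region in every library, 130 were longer and 496 shorter in this sense. The median log2 ratio of the covered length was 0.63 in higher windows, -0.92 in lower windows and -0.15 in all 2356 windows with regions throughout. The density of reads hardly separated them, with median log2 ratios of -0.09, -0.05 and -0.08. As the windows were called by their reads, which rise with the length, these values are given as a description. With the covered length as an offset, 8 windows were called higher and 0 lower by edgeR, and 361 had an unadjusted p under 0.05.

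Reads in called regions were also more concentrated in the maltonis lists. The windows were ranked by their mean share of reads over the 6 libraries. The top 10% of them held 44.4%, 43.8% and 43.5% of the reads in untreated cells and 46.9%, 47.1% and 48.1% in maltonis-treated cells. The top 1%, which were 26 windows, held 12.5%, 12.2% and 12% without and 13.7%, 13.5% and 14.8% with maltonis. Both shares lay above the untreated range in all 3 maltonis libraries (exact permutation test, two-sided, p = 0.1 each, the smallest that 3 against 3 libraries allow). At the other end, 2580, 2596 and 2594 of 2657 windows held at least 1 region in untreated libraries and 2477, 2484 and 2478 in maltonis libraries. When the tested windows were split into 10 groups of equal size by their reads, the median log2 fold change rose from -0.73 in the group with the fewest reads to -0.08 in group 5 and 0.13 in group 10. In the lowest group 20.5% of windows were above 0, and in the highest 79.9%. Of the 42 higher windows, 16 lay in the highest group. As only reads in called regions are counted, these values depend on how much was called in each list. Both top shares were highest in maltonis replicate 3, whose list held the fewest reads. The shares and the number of windows with a region are not given at a common lowest score or with equal numbers of regions.

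**Figure D2:**
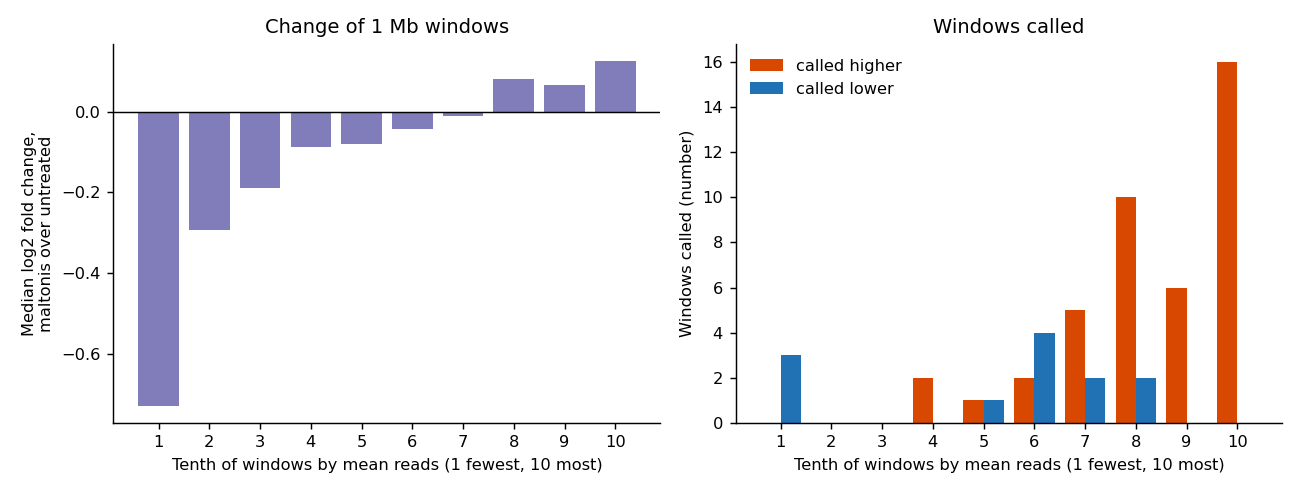
Tested 1 Mb windows in 10 groups of 258 or 259 by their mean number of reads over the 6 libraries (x axis, 1 fewest, 10 most). The left panel gives the median log2 fold change, maltonis over untreated, which rises from -0.73 to 0.13, and the right panel the number of windows called higher or lower by edgeR, with 16 higher and 0 lower in the highest group.

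Region width was examined next. Narrow regions were fewer in all 3 maltonis lists. Regions under 2 kb numbered 1927, 2125 and 2004 without and 596, 725 and 1511 with maltonis, and those from 2 to under 5 kb numbered 21029, 21538 and 21414 without and 15476, 16272 and 18485 with it. Neither class overlapped between the conditions (exact permutation test, two-sided, p = 0.1 each). This depended on how many regions were called. With the same number of top-scoring regions per list, 3.96%, 3.70% and 3.43% of the untreated regions were under 2 kb and 1.97%, 2.34% and 5.16% of those of maltonis replicates 1 to 3, so that replicate 3 exceeded every untreated library. The wider classes separated maltonis replicate 3 from the other 2. Regions from 5 to under 10 kb numbered 8832, 9202 and 9419 in untreated libraries, 11032 and 10539 in maltonis replicates 1 and 2, and 7765 in replicate 3. From 10 to under 20 kb the numbers were 1537, 1593 and 1698 in untreated libraries and 2038, 1906 and 1234 in maltonis libraries. As shares of a library, regions under 5 kb differed by -7.92 percentage points between the means, but the conditions overlapped, since maltonis replicate 3 kept 63.1% of its regions in the class from 2 to under 5 kb. Without that library the difference was -12.1 percentage points, and with a common lowest score for all lists it was -5.11, in both cases with no overlap, whereas with equal numbers of regions it was -2.81 with overlap.

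The few regions of 20 kb and over carried more of the reads in every maltonis library. They held 12.8%, 12.8% and 12.8% of the reads in untreated and 15.05%, 14.9% and 13.8% in maltonis libraries (exact permutation test, two-sided, p = 0.1), on 6.72% ± 0.0155 and 7.74% ± 0.760 of the covered length (SD, n = 3 each). Their number was 318, 323 and 335 without and 410, 390 and 282 with maltonis.

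The density of reads was lower with maltonis in regions from 5 to under 20 kb. Over all regions, untreated libraries had 19.3, 19.5 and 19.6 reads per kb and maltonis libraries 18.9, 18.8 and 18.3 (exact permutation test, two-sided, p = 0.1). Within the class from 5 to under 10 kb the density was 18.6, 18.5 and 18.6 reads per kb without and 16.9, 17.0 and 17.0 reads per kb with maltonis. From 10 to under 20 kb it was 21.1, 21.5 and 21.6 without and 19.3, 19.5 and 19.8 with maltonis. Here maltonis replicate 3 was close to the other maltonis libraries, and the conditions did not overlap in either class (exact permutation test, two-sided, p = 0.1 each). In the regions of 20 kb and over they did, with 36.6, 37.3 and 37.4 reads per kb without and 34.2, 35.0 and 36.9 reads per kb with maltonis, and also in the class from 2 to under 5 kb, with 16.8 ± 0.25 and 16.7 ± 0.607 reads per kb (SD, n = 3 each). The 10% of regions with the highest density began at 23.8, 24.2 and 24.25 reads per kb in untreated and at 22.7, 22.7 and 21.96 reads per kb in maltonis libraries. Scaled to RPKM by the reads in regions of each library, the direction was not kept. The medians were 5.13 ± 0.140 RPKM without and 5.44 ± 0.544 RPKM with maltonis (SD, n = 3 each), and maltonis replicate 3, whose list held the fewest reads, stood at 6.06 RPKM. The regions of all libraries were also split at fixed limits into 5 classes of this scaled density. The densest class held 20.5%, 17.2% and 16.3% of the regions of the untreated libraries and 14.6%, 17.1% and 35.5% of those of maltonis replicates 1 to 3, so that the mean difference of 4.395 percentage points became -2.14 without maltonis replicate 3.

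**Figure D3:**
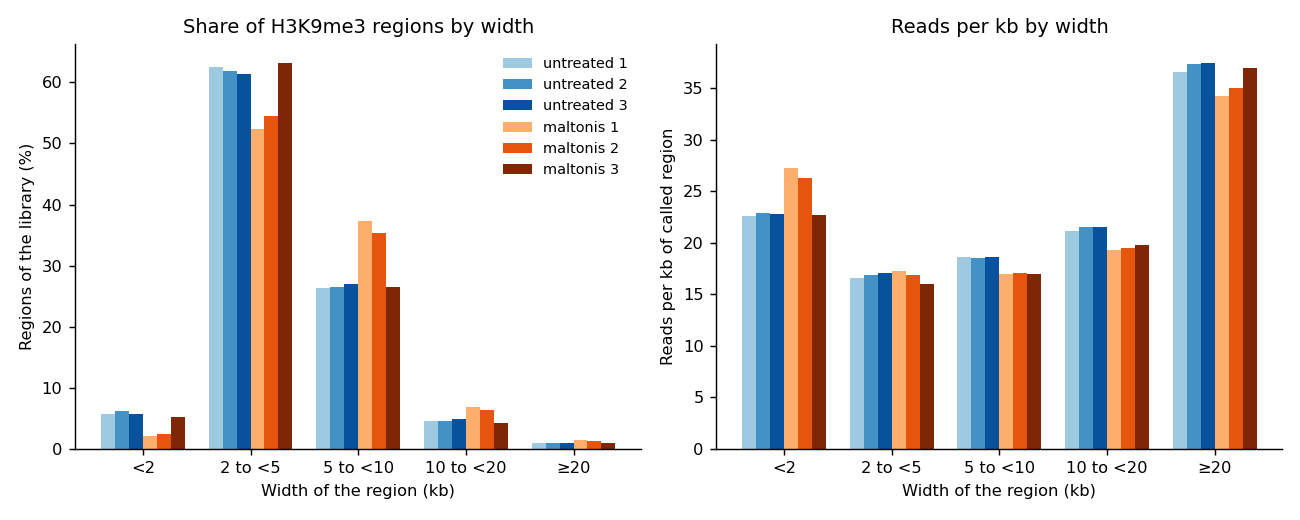
Share of the regions of each library by width (left, y axis in percent) and reads per kb of called region by width (right), with 1 bar per library and width classes in kb on the x axis. Maltonis 1 and 2 have fewer regions under 5 kb and more from 5 to under 10 kb, maltonis 3 resembles the untreated libraries in width, and all 3 maltonis libraries have about 17 reads per kb from 5 to under 10 kb against 18.5 to 18.6 in untreated ones.

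To follow single places, the lists were merged wherever regions overlapped by at least 1 bp, which gave 46568 merged regions. Of these, 14165 were called in all 6 libraries and could be tested. A region lost or gained by a whole condition is not among them. Reads were tested with the same edgeR limits, and 36 regions were higher (0.254%) and 2 lower (0.0141%) with maltonis, 38 in all (0.268%). DESeq2 called 132 and 37. Each library mattered again, as 1 to 12 higher and 0 lower regions passed without any 1 of the 6, and 1631 to 1918 regions then had an unadjusted p under 0.05. A single higher region was left without untreated replicate 3, maltonis replicate 1 or maltonis replicate 2. The number of reads that a region collects moves with its called length, so the test was repeated with that length as an offset. By reads per kb, 18 regions were higher (0.127%) and 3 lower (0.0212%), 21 in all (0.148%), and DESeq2 called 10 and 1. Leaving out single libraries gave 11 to 14 higher and 1 to 5 lower regions, with 11 and 1 in the absence of untreated replicate 1. Only 3 regions were called in both fits.

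The 36 regions with more reads were regions that had become longer. The called length was greater in every maltonis library than in any untreated one in 33 of the 36, against 760 of the 14165 regions tested (5.37%). Their median length ratio was 1.82, and their median ratio of reads per kb was 1.05, against 1.00 and 0.932 over all regions. As the 36 were called by their reads, which move with the called length, these values are given as a description. Of the 36, 9 were on chromosome 12, 7 on chromosome 19 and 5 on chromosome 9. These 3 chromosomes together held 58.3% of them and 16.8% of all regions tested. H3K4me3 overlapped 15 (41.7%), against 13.6% of all regions. Over all regions tested, both shares varied with width. By mean called length, 11 of the 36 were of 20 kb and over, 10 from 10 to under 20 kb and 12 from 5 to under 10 kb. Of all tested regions of 20 kb and over, 43.6% overlapped H3K4me3 and 47.6% lay on the 3 chromosomes. These shares were 20.3% and 26.2% from 10 to under 20 kb, and 9.24% and 11.5% from 2 to under 5 kb. A comparison at equal width was not made.

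The largest rise was at chr4:8542001-8557600, with 42, 68 and 37 reads in untreated and 262, 193 and 182 reads in maltonis libraries (log2 fold change 2.22, SE 0.252, edgeR FDR 0.00209). The called length there went from 2600, 4600 and 2000 bp to 13400, 11200 and 10000 bp, while the density lay between 14.8 and 19.6 reads per kb in all 6 libraries. At chr13:110029401-110047600 the reads were 37, 69 and 55 without and 193, 262 and 157 with maltonis (2.04, SE 0.254, edgeR FDR 0.00403), over 2600 to 4400 bp and 11200 to 16200 bp. At chr12:24330801-24361600 they were 68, 63 and 81 without and 363, 302 and 127 with maltonis (1.98, SE 0.284, edgeR FDR 0.00705), and maltonis replicate 3, with 8600 bp called, gained far less than the other 2, with 27200 and 23000 bp. The next were chr9:7371201-7388800, with 64.0 ± 23.5 and 214 ± 32.6 reads, and chr19:46444001-46476600, with 111 ± 51.2 and 364 ± 108 reads (SD, n = 3 each). In all 5 regions the lowest maltonis library exceeded the highest untreated one. The 2 regions with fewer reads, chr18:2858801-2868000 and chr8:86059401-86074600, had become shorter in the same way, with a mean of 6867 and 2200 bp called in the former and 12200 and 4067 bp in the latter.

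The 18 regions with more reads per kb were of another kind. All 18 overlapped the H3K4me3 reference and all 18 the H3K27ac reference, that is, merged regions of those marks called in at least 2 of 3 replicates of either condition. Over all 14165 regions, 13.6% overlapped H3K4me3 and 32.5% overlapped H3K27ac. Their called length had a median ratio of 0.948, and their density one of 1.70. A peak of H3K4me3 lay in 17 of the 18 in each of the 6 H3K4me3 libraries. In 16 of the 18 it was found in all 6 libraries, in 1 only in untreated and in 1 only in maltonis libraries. The H3K4me3 length inside the 18 regions was 40.6, 41.8 and 41.7 kb without and 42.4, 44.7 and 45.3 kb with maltonis. Over all 14165 regions it was likewise higher in each maltonis library, with 3122 ± 71.0 kb without and 3249 ± 54.8 kb with maltonis (SD, n = 3 each). H3K27ac regions were in all 18 in every library and covered 125 ± 1.00 kb without and 119 ± 1.33 kb with maltonis, against 27870 ± 764 and 23643 ± 657 kb over all 14165 regions (SD, n = 3 each). The part of either mark in the H3K9me3 change was not tested.

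At chr11:63436201-63441000, the densest rise, the density was 14.7, 16.1 and 20.8 reads per kb in untreated and 33.8, 52.5 and 47.5 reads per kb in maltonis libraries (log2 fold change per kb 1.48, SE 0.189, edgeR FDR 2.73e-05). This was also 1 of the 3 regions called in both fits, with 44, 58 and 54 reads without and 162, 147 and 133 reads with maltonis. At chr5:36240401-36246400 the density was 25, 11.9 and 15 reads per kb without and 36.2, 44.2 and 33.2 reads per kb with maltonis (1.42, SE 0.204, edgeR FDR 0.000127). At chr10:135068801-135076000 it was 15.7, 23.8 and 19.4 without and 49.2, 32.4 and 37.8 with maltonis (1.16, SE 0.172, edgeR FDR 0.000161). The conditions did not overlap in any of these regions, nor at chr15:44116601-44120200 (1.14, SE 0.201) and chr10:70658601-70665000 (1.09, SE 0.184). All 5 were short, with 1200 to 7200 bp called in a library. Maltonis replicate 3 went with the other 2 in each of them. Of the 3 regions with lower density, chr2:65088401-65093200 had 34.4, 52.0 and 39.0 reads per kb without and 14.4, 17.7 and 13.9 with maltonis (-1.33, SE 0.209, edgeR FDR 0.000430). Its reads were 51.0 ± 11.5 and 49.0 ± 17.3 while its called length was 1267 ± 462 and 3267 ± 1361 bp (SD, n = 3 each). The others were chr15:64184401-64190200 (-1.05, SE 0.176) and chr2:45135201-45141400 (-0.89, SE 0.175), and 1 of the 3 overlapped H3K4me3.

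**Figure D4:**
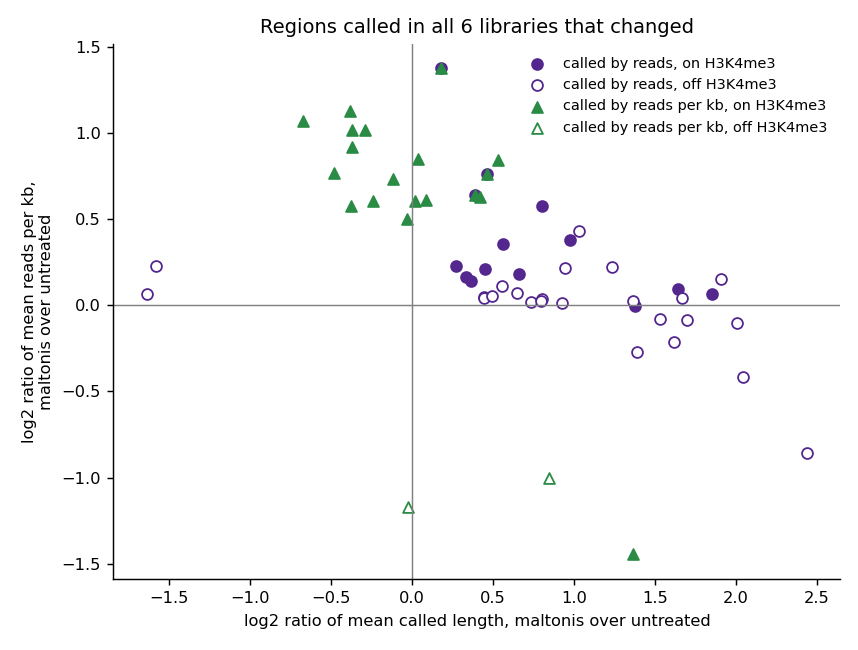
Regions called in all 6 libraries that passed the edgeR limits by reads (circles, 36 higher and 2 lower) or by reads per kb (triangles, 18 higher and 3 lower). The x axis gives the log2 ratio of the mean called length and the y axis that of the mean reads per kb, maltonis over untreated, and symbols are filled where the region overlapped the H3K4me3 reference. Regions called by reads spread along the length axis, and the 18 denser ones lie high on the density axis and are all filled.

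Density on H3K4me3 was then counted over all tested regions. It was higher in every maltonis library in 136 of the 1920 tested regions that overlapped H3K4me3 (7.08%) and in 258 of the 12245 that did not (2.11%). Lower density in every maltonis library was found in 17.3% and 17.4% of them. Density is here reads per kb not scaled by library, with median log2 ratios of -0.055 on and -0.11 off H3K4me3. In the edgeR fit with TMM and the length offset, the median log2 fold changes per kb were 0.063 and 0.0056. The direction of the medians thus depended on the scaling. The percentages are shares of regions and not of replicates, and the difference between regions on and off H3K4me3 was not tested. For width, the tested regions of 20 kb and over were longer in every maltonis library in 10.5% and shorter in 5.74% of cases, against 4.81% and 4.17% in those from 2 to under 5 kb.

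The overlap with H3K4me3 was then followed by width over the complete lists. The share of regions that overlapped H3K4me3 was higher in each maltonis library in every width class but that from 10 to under 20 kb. It differed most among the narrow regions. Under 2 kb, 10.0%, 10.7% and 11.8% of the untreated regions overlapped H3K4me3 and 25.5%, 24.4% and 20.8% of the maltonis regions (exact permutation test, two-sided, p = 0.1). The number of such regions did not separate the conditions, with 193, 227 and 236 without and 152, 177 and 314 with maltonis, while the narrow regions off H3K4me3 became fewer. From 2 to under 5 kb the number itself was higher, with 1523, 1495 and 1506 without and 1631, 1694 and 1889 with maltonis (exact permutation test, two-sided, p = 0.1). In all, regions on H3K4me3 rose from 2796 ± 32.6 to 3322 ± 51.4 per library and regions off H3K4me3 fell from 31635 ± 685 to 26232 ± 238 (SD, n = 3 each). These numbers and shares depend on how many regions were called. At a common lowest score the fall in the number of all regions was smaller and the conditions overlapped. The overlap with H3K4me3 is not given at that setting. By density, the share on H3K4me3 was higher in each maltonis library in all 5 classes of scaled density, with the largest difference in the densest class (11.3% ± 0.503 against 17.0% ± 2.61, SD, n = 3 each). For H3K27ac, narrow regions under 2 kb overlapped in 25.1% ± 0.0692 of cases without and 35.8% ± 1.14 with maltonis (SD, n = 3 each). From 10 to under 20 kb the share was lower in every maltonis library, with 43.7% ± 0.0939 and 41.5% ± 1.72 (SD, n = 3 each, exact permutation test, two-sided, p = 0.1), and from 5 to under 10 kb the conditions overlapped at 28.1% ± 0.702 and 28.0% ± 0.847 (SD, n = 3 each).

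**Figure D5:**
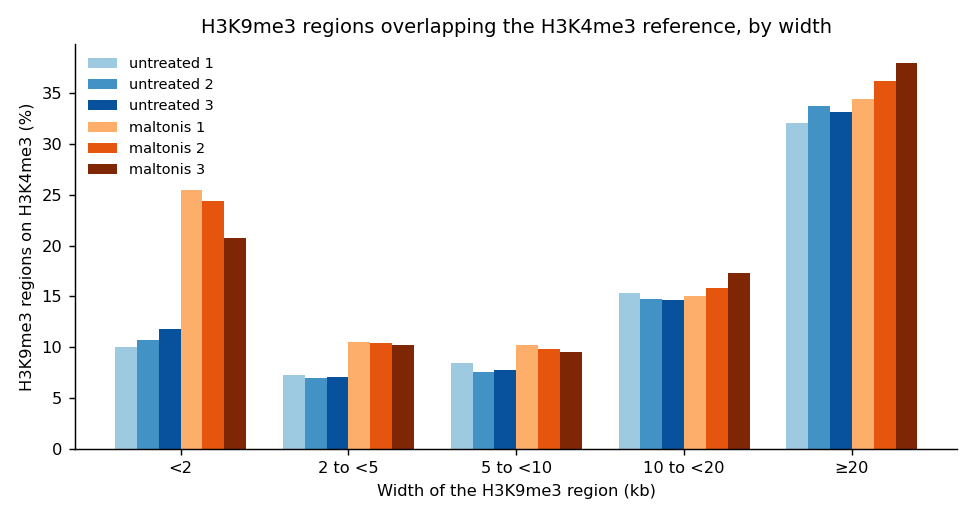
Percent of the H3K9me3 regions of each library that overlapped the H3K4me3 reference (y axis), by width of the H3K9me3 region in kb (x axis), with 1 bar per library. Under 2 kb the untreated libraries lie between 10.0% and 11.8% and the maltonis libraries between 20.8% and 25.5%.

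Finally, the densest and the widest regions of the lists were examined. The 5 densest regions called in all 6 libraries were chr1:121478401-121485600, chr10:42596801-42602200, chr18:18511001-18521000, chr6:58760201-58779800 and chr19:27731801-27741600. Their distance from the centromeres was not measured, since no annotation of hg19 was used. At the first region 14312, 14485 and 14630 reads lay in the untreated and 15561, 15207 and 14170 reads in the maltonis libraries, on 6000 to 7200 bp. The reads at chr18:18511001-18521000 rose from 7276, 7540 and 7628 to 9044, 9021 and 8252 (log2 fold change 0.35, edgeR FDR 0.00185), which is below the limit of 0.58. The other 4 had log2 fold changes between 0.15 and 0.22. All 5 also overlapped both other marks, and what this adds to their H3K9me3 reads was not tested. Their reads are therefore not taken as a measure of H3K9me3 at the centromeres. By qPCR on the H3K9me3 selection, the paper reported less alphoid and satellite-2 DNA after maltonis, which is another measure than reads in called regions. Regions with over 10 times the overall density of their library, 20 to 22 per library, held 4.72%, 4.90% and 4.86% of the reads without and 5.12%, 5.06% and 5.55% with maltonis on 0.188% to 0.222% of the covered length. Leaving them out, a step added after the data were seen, gave 18.6 ± 0.160 reads per kb over all regions without and 17.7 ± 0.329 with maltonis (SD, n = 3 each), still with no overlap.

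The 5 widest regions had mean called lengths from 292033 to 452433 bp. At chr4:35401-496200, which had 451200, 448800 and 454000 bp called without and 454800, 453000 and 452800 bp with maltonis, the log2 fold change of the reads was 0.0050 (edgeR FDR 0.964). At chr8:128473801-128850200 the called length was 352400, 340600 and 339600 bp without and 367400, 364200 and 360200 bp with maltonis, and the reads rose from 7156, 6942 and 6937 to 8777, 8688 and 7863 (0.39, edgeR FDR 0.00185). The conditions were apart in length and in reads, but the change was below the limit. At chr19:48947001-49264600 the reads were 6378 ± 74.9 without and 7396 ± 541 with maltonis (SD, n = 3 each, log2 fold change 0.33, edgeR FDR 0.00287). The others, chr10:37730601-38103000 (0.23) and chr19:9348401-9699600 (0.10), changed less. None of the 10 densest or widest regions passed the limits.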

How the data were processed

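Single-end ChIP-seq reads were aligned by the authors to hg19 with BWA and SAMtools, per the submitters' processing notes, and enriched H3K9me3 and H3K27ac regions were called in each library with epic2 per the study's methods (SICER in the processing notes), and H3K4me3 peaks with MACS2. Versions and caller settings are not given in the sources used here. The deposited lists give a raw read count per region, not normalized, and a deposited island score of the caller. The score was used only to set a common lowest score and to take equal numbers of top-scoring regions.

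Groups and replicate numbers came from the sample titles. Regions on chromosomes 1 to 22 were kept (1333 H3K9me3 regions on chromosome X were left out). Read counts per chromosome, 1 Mb window and merged region were tested with edgeR 4.0.16 (quasi-likelihood test, TMM, Benjamini-Hochberg adjustment) in R 4.3.3, and with DESeq2 1.42.0 as an alternative, after tests on simulated data. Standard errors were derived from the F statistic. Windows with low counts were filtered by edgeR's filterByExpr. For values per library an exact permutation test was used (two-sided, 20 ways to assign 6 libraries, smallest p 0.1). The windows and regions named are up to 5 per direction with the largest log2 fold change among those called, and the 5 densest and 5 widest regions called in all 6 libraries. The regions, classes and tests were chosen with earlier results of these data known, which already held the overlap with H3K4me3 and the region calls. Other settings tried were another normalization, filter, window size and width class, a common lowest score, equal numbers of regions, a replicate block and leaving out each library. The total sequencing depth was not used here, and genes were not analysed here, since no annotation of hg19 was used.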

Additional observations from a re-analysis of the deposited data

How the results depend on the processing

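Maltonis replicate 3 decided the direction of the covered length, which differed by -7.76 Mb in all (-13.2 to 1.18 Mb when a library was left out, 1.18 Mb without maltonis replicate 3), 0.0411 Mb at a common lowest score and 5.27 Mb with equal numbers of regions. The number of regions differed by -4878, and by -1844 with overlap at a common lowest score. The difference in median width was 433 to 733 bp when a library was left out (533 bp in all), and the conditions were apart at 600 bp without untreated replicate 3 and at 733 bp without maltonis replicate 3. Reads in regions differed by -394899.8 to -84286, apart only at -341778 without untreated replicate 1. The share of regions under 5 kb differed by -12.1 to -5.17 percentage points when a library was left out and by -5.11 at a common lowest score and -2.81 with equal numbers of regions, that of regions of 10 kb and over by 0.820 to 2.37 (2.37 with no overlap without maltonis replicate 3), that of the class of highest density by -2.14 to 8.29 (-4.04 with equal numbers of regions), and that of the class of lowest density by -11.7 to -2.35 (-10.4 with no overlap without untreated replicate 1, 0.770 at a common lowest score and 2.37 with equal numbers of regions). These 2 shares rest on the scaling by the reads in regions and thus on how much was called.

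Of the window calls, 42 higher and 12 lower, DESeq2 gave 68 lower, no TMM 20 higher, a common lowest score 4 lower, 5 Mb windows 4 higher and 17 lower, 100 kb windows 0 and 0, and the length offset 8 and 0. Leaving out a library gave 17 to 38 higher and 0 to 6 lower (25 and 2, 23 and 0, 17 and 0 without untreated replicates 1, 2 and 3, and 21 and 1, 30 and 6, 38 and 5 without maltonis replicates 1, 2 and 3). Chromosome calls went from 10 and 9 to 6 higher without TMM and 0 and 0 with the length offset. Region calls by reads, 36 and 2, were 132 and 37 with DESeq2, 17 and 1 without TMM, 1 lower at a common lowest score, 9 and 5 among 2777 regions of similar length, and 1 to 12 higher and 0 lower when a library was left out (8, 12 and 1 higher without untreated replicates 1 to 3, and 1, 1 and 11 without maltonis replicates 1 to 3). Region calls per kb, 18 and 3, were 10 and 1 with DESeq2, 10 higher without TMM, and 11 to 14 higher and 1 to 5 lower when a library was left out (1 lower without untreated replicate 1 or maltonis replicate 1, and 5 without untreated replicate 2 or maltonis replicate 3). The cause of these changes was not tested. With the length offset, centred on its median, the log2 fold change turned on chromosomes 1 (0.049), 5 (0.014), 6 (0.0084), 8 (0.067), 18 (0.13), 7 (-0.024), 9 (-0.021), 11 (-0.020), 12 (-0.015) and 20 (-0.037), and in the windows chr20:30000001-31000000 (-0.30), chr9:13000001-14000000 (-0.0036), chr9:9000001-10000000 (-0.12), chr10:130000001-131000000 (-0.038) and chr1:192000001-193000000 (0.12). This offset removes the length that the calls rest on. Chromosome 4 turned without TMM (-0.014).

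Same-numbered libraries did not deviate together in the window values, with correlations of 0.0017, 0.0088 and -0.019 over 2356 windows. Whether they shared a culture or a batch cannot be told from these values, and the sample titles do not say. With the replicate block, 31 windows were higher and 2 lower, 11 regions higher and 0 lower by reads (1907 at an unadjusted p under 0.05), and 24 and 3 per kb. A called region held a median of 58 to 72 reads, which limits the precision of region counts.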
